A study of Mus musculus with 13 samples.

Results

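DNA repair and Fanconi anaemia genes, 44 in all, were followed across haematopoietic stem cells (HSCs) of mouse bone marrow, which renew themselves and give rise to all blood lineages. The genes were taken from a written list of repair genes and matched by mouse symbol, using GENCODE M21, to the Ensembl identifiers of the deposited table. All 44 were found among its 13201 genes, and all 44 passed the filter on low values that left 12846 genes to test. The 13 libraries were each made from 100 cells labelled as HSCs with Smart-seq2, which copies whole transcripts of small RNA inputs into cDNA. The mice were wild type (WT) or deficient for MEK1 (KO), the Map2k1 product that phosphorylates ERK. They were left untreated or given 5-fluorouracil (5-FU), which blocks thymidylate synthesis, enters RNA and DNA and kills dividing cells. There were 3 untreated WT libraries (D1, D2 and D3), 3 untreated KO libraries (D4, D5 and D6), 4 WT libraries from treated mice (A2, A3, A4 and D4) and 3 KO libraries from treated mice (A5, A6 and A8). The sources used here do not give the age and strain of the mice, the way MEK1 was deleted, or the dose and timing of 5-FU. They also do not say whether each library had its own mouse, so p-values measure only the spread between these libraries, which may be technical.

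Cells repair different DNA lesions by different routes. Homologous recombination copies an intact sister chromatid to mend a double-strand break and needs BRCA1, BRCA2 and their partners, whereas non-homologous end joining ligates broken ends directly through the Ku heterodimer and XRCC4-ligase IV. The Fanconi anaemia proteins unhook crosslinks between the strands at stalled forks, and their inherited loss in humans causes bone marrow failure. Base excision repair removes single damaged or misplaced bases, including the uracil and fluorouracil that 5-FU leads into DNA, and mismatch repair recognises mispaired bases after replication. Nucleotide excision repair cuts out bulky lesions, and the kinases ATM, ATR, CHK1 and CHK2 signal damage to the cell cycle.

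Most of these genes did not pass the test of any comparison. Of the 44, 6 passed the test in at least 1 of 5 comparisons. Brip1, Msh6 and Xrcc5 were higher in KO than in WT cells after 5-FU. Chek2 rose, and Msh6 and Xrcc4 fell, from untreated to 5-FU-treated WT cells, and Fancb rose from untreated to 5-FU-treated KO cells. The promoters of 4 of these genes are shown because they carry the genotype difference after 5-FU (Brip1, Msh6, Xrcc5) and the clearest response to the drug (Chek2). Each is the 250 bases before the start of the gene on the gene's own strand, 5′ to 3′, from RefSeq (GRCm38.p6), with motif matches in capitals. ATTGG is a CCAAT box read on the other strand, and GCGGGAAA is the E2F form TTTCCCGC read on the other strand. The windows are chr11:86201194-86201443, minus strand for Brip1, chr17:87974800-87975049, plus strand for Msh6, chr1:72307171-72307420, plus strand for Xrcc5 and chr5:110839733-110839982, plus strand for Chek2.
Brip1: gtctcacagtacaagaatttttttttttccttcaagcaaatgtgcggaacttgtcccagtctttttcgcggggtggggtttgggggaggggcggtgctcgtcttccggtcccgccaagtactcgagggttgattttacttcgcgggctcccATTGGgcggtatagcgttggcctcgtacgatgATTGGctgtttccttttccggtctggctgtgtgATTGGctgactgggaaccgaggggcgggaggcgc
Msh6: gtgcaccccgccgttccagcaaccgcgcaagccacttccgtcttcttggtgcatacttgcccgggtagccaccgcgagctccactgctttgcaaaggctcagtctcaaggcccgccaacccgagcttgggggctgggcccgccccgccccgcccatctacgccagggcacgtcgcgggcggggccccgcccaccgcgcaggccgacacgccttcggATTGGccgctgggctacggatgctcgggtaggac
Xrcc5: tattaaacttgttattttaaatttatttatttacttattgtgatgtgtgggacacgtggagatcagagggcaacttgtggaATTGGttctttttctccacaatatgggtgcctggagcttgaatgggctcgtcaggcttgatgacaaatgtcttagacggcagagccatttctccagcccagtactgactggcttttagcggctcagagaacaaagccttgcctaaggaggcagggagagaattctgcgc
Chek2: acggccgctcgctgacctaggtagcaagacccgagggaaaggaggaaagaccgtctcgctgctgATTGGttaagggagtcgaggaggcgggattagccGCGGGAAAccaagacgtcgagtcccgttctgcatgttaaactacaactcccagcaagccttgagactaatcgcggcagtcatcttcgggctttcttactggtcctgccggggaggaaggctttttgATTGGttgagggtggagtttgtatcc

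Promoters were found in the RefSeq table for 38 of the 44 genes, and 4 kinds of motif were compared with all 27025 promoters of the table and with those of the 9505 tested genes it holds. Exact matches were searched on both strands. A CCAAT box (CCAAT) occurred in 21 of the 38 promoters (55.3%) and in 37.5% of all promoters and 40.9% of those of tested genes. One of 4 E2F forms (TTTCGCGC, TTTGGCGC, TTTCCCGC or TTTGCCGC) occurred in 6 of 38 (15.8%), in Brca2, Bard1, Fancg, Msh3, Xrcc6 and Chek2, and in 2.16% of all promoters and 3.88% of those of tested genes. The cell cycle genes homology region, CHR (TTTGAA or TTCGAA), occurred in 3 of 38 (7.89%), in 19.6% of all promoters and in 14.97% of those of tested genes. An ETS core (CCGGAAGT) occurred in 3 of 38 (7.89%), in 3.23% of all promoters and in 7.01% of those of tested genes. Brip1 held 3 inverted CCAAT boxes, at 99, 67 and 34 bases before the start. Chek2 held inverted boxes at 186 and 26 bases and an E2F form at 152 bases before the start, where none of the searched letters lay in the Xrcc4 window. These matches describe the letters in the windows and say nothing of binding.

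Libraries held 11416753 to 25380570 recovered reads, except untreated WT D1 with 45384866, whose label names reads from both flow cells. WT A3 and WT D4 after 5-FU were nearly alike, with a Pearson correlation across genes of 0.988 where other pairs within a group gave 0.912 to 0.977. Over the 44 repair genes their median absolute log2 difference was 0.102, where the other pairs of WT libraries after 5-FU gave 0.301 to 0.379. Their counts differed by more than sampling noise (median chi-square per gene 4.32), which does not show that they came from separate cells, and the sources used here do not say whether they did. They were kept as 2 libraries, as labelled, and a p-value with the pair averaged stands beside each call. All untreated libraries and WT D4 after 5-FU carry acquisition dates of 2015, and all others after 5-FU dates of 2016. A fit with acquisition year as a term therefore takes the year difference only from WT D4 against the other WT libraries after 5-FU. Map2k1, the targeted gene, stood at normalized counts of 905, 1116 and 1766 in the untreated WT libraries D1, D2 and D3, 611, 749.8 and 545 in the untreated KO libraries D4, D5 and D6, 604, 1634, 584 and 1573 in the WT libraries A2, A3, A4 and D4 from treated mice, and 328, 459.9 and 304 in the treated KO libraries A5, A6 and A8. The KO mean was 50.3% of WT in untreated cells (exact permutation test of the log2 values, two-sided p = 0.1, the smallest that 3 against 3 libraries allow) and 33.1% after 5-FU (exact permutation test, p = 0.0857, where 0.0286 is the smallest possible). In the limma fit the adjusted p was 0.460 in untreated cells and 0.0339 after 5-FU, or 0.110 with the alike pair averaged. All 9 HSC markers listed were measured, with a summed normalized count of 19453 to 21823 in untreated WT and 15909 to 18545 in untreated KO cells, 10972 to 15128 in WT and 7070.1 to 7569 in KO cells after 5-FU.

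Levels between genes are compared per kilobase of merged exon, as the mean of the 4 group mean normalized counts. Apex1, the endonuclease that cuts at abasic sites, had the highest level, at 5471 per kb, but 61.7% of its exon bases overlap Pip4p1 on the opposite strand, and Smart-seq2 libraries carry no strand information. Next came both Ku subunits, Xrcc5 at 581 and Xrcc6 at 576 per kb, then the mismatch repair gene Msh6 at 501, the strand-break sensor Parp1 at 416 and the checkpoint kinase Chek2 at 349 per kb. At the other end were the recombination gene Rad51c at 8.54, the helicase Ercc2 at 3.49 and the ligase Lig4 at 2.49 per kb. Lig4 had 0 reads in 7 libraries, Rad51c in 5 and Ercc2 in 1, so these 3 genes lie at the limit of 100-cell libraries. The other 41 genes had reads in every library.

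**Figure D1:**
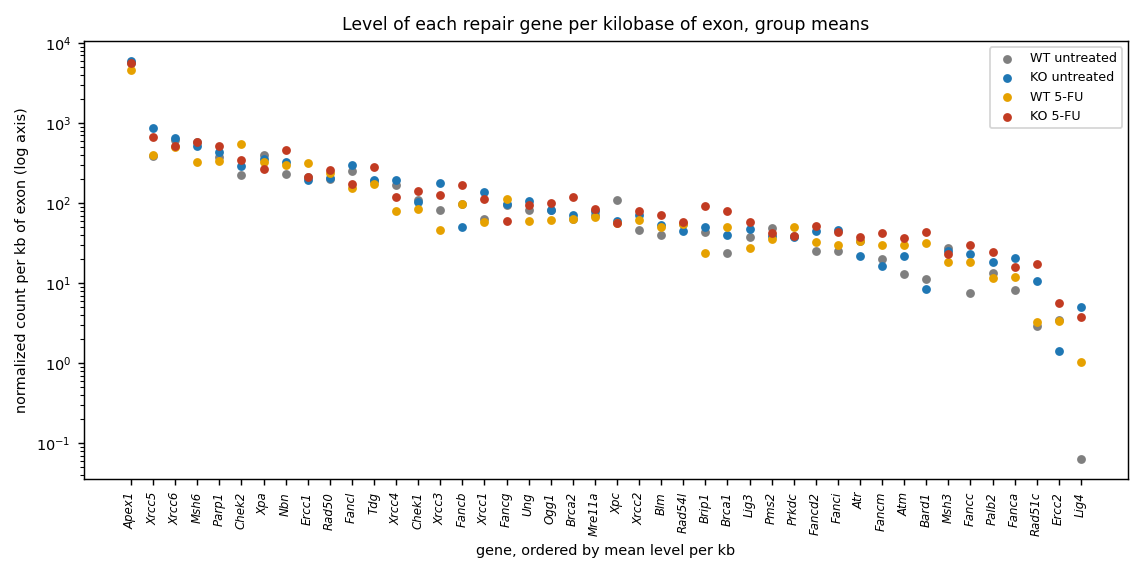
Mean normalized count per kilobase of exon (log axis) of each of the 44 repair genes in the 4 groups, ordered by the mean of the 4 group means. Apex1 stands above all others at 5471 per kb and Lig4 lowest at 2.49 per kb.

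Within a group, 14 of 15 pairs of libraries had a larger median absolute log2 difference over the repair genes than over all genes, such as 0.481 against 0.355 for untreated WT D1 and D2. Untreated WT D1 and D3 were the exception, with 0.326 against 0.354. The median standard deviation of the deposited log2 values was 0.308 over the repair genes and 0.302 over all genes in untreated WT, and 0.283 against 0.250 in untreated KO. After 5-FU it was 0.256 against 0.247 in WT and 0.203 against 0.182 in KO. Summed over the 44 genes, normalized counts were 29994 to 33739 in untreated WT, 34833 to 36468 in untreated KO, 27449 to 31866 in WT after 5-FU and 36922 to 38786 in KO after 5-FU. The KO sums lay above the WT sums in both treatments without overlap, and no such sum over all genes stands beside them. Gene by gene, KO and WT libraries did not overlap for 4.55% of the 44 in untreated cells, against 11.7% of all genes. After 5-FU these shares were 25.0% and 27.0%. Apex1, Xrcc6, Msh6 and Parp1 have the highest counts and weigh most in these sums.

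**Figure D2:**
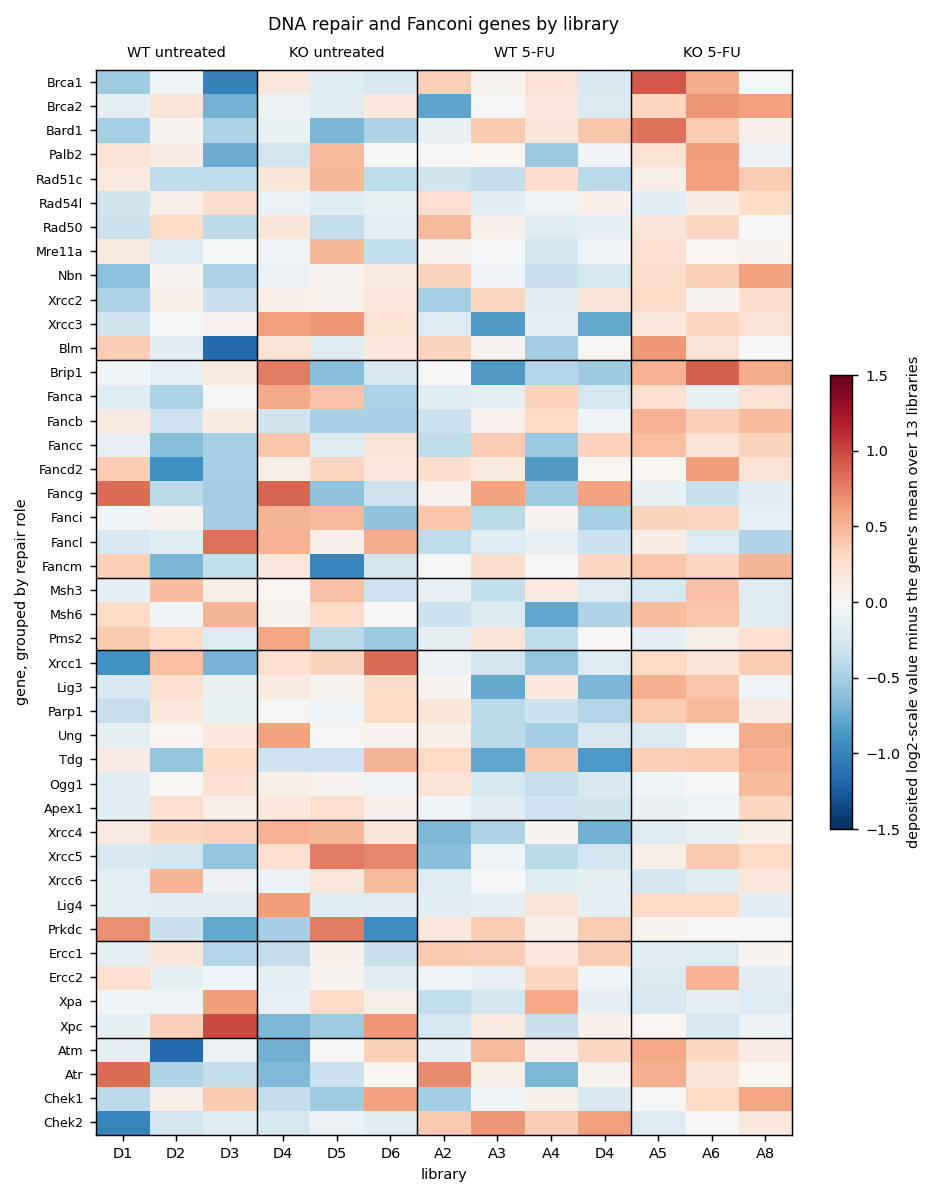
Deposited log2-scale value of each repair gene in each of the 13 libraries minus the gene's mean over all libraries, with genes in rows by repair role and libraries in columns by group. Chek2 is high in all 4 WT libraries after 5-FU, Brip1 and Fancb are high in all 3 KO libraries after 5-FU, and columns A3 and D4 of WT after 5-FU look alike.

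KO and WT cells after 5-FU differed in 3 of the 44 genes (6.82%), all higher in KO, where 10.9% of all 12846 genes were called and 5.36% were called higher. The members' share is near that background. The 3 were Brip1, a Fanconi helicase, Msh6, a mismatch recognition subunit, and Xrcc5, the large Ku subunit. With the alike pair averaged, 0 of 44 passed, with adjusted p between 0.0537 and 0.0587 for these 3. The median log2 difference was 0.29 over the repair genes and -0.02 over all genes, and 38 of 44 differences were positive against 48.4% of all genes. Unadjusted p was under 0.05 for 12 repair genes and for 3190 of 12846 genes. The KO and WT libraries did not overlap for 11 of 44 genes (25.0%), against 27.0% of all genes. Of these, 8 were higher in KO, where 13.2% of all genes were, namely Brip1, Brca2, Fancb, Fancm, Msh6, Xrcc1, Xrcc3 and Xrcc5. Prkdc, Ercc1 and Chek2 were lower in all KO libraries without passing the test. In bulk RNA of sorted cells, fewer cells of a type and less RNA per cell cannot be told apart.

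Untreated KO and WT cells differed in 0 of the 44 genes by limma, against 0.0311% of all genes (4 of 12846). Unadjusted p was under 0.05 for 3 repair genes and for 1291 of 12846 genes. With limma-voom on the recovered reads, 0 of all 12846 genes were called, so its 0 repair genes add nothing. Xrcc3 and Xrcc5 were the 2 genes whose KO and WT libraries did not overlap, 4.55% of the 44 against 11.7% of all genes. The median log2 difference was 0.12 over the repair genes and 0.002 over all genes.

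5-FU changed 3 of the 44 genes in WT cells (6.82%), against 6.68% of all genes. Chek2 rose, and Msh6 and Xrcc4 fell, where 2.96% of all genes fell. Those were also the only 3 repair genes whose treated and untreated WT libraries did not overlap, against 16.7% of all genes. The median log2 difference was 0.002 over the repair genes and -0.002 over all genes. In KO cells 5-FU changed 1 gene, Fancb (2.27% of the 44), against 5.92% of all genes. Treated and untreated KO libraries did not overlap for 7 genes (15.9%), against 29.6% of all genes. Brca2, Bard1, Nbn, Fancb and Fancm were higher and Xrcc4 and Xpa lower, and Fancb alone of these passed the test. The genotype by 5-FU interaction, which asks whether the response differed between KO and WT cells, called 0 of 44 genes against 2.84% of all genes. By limma-voom 0 of the 44 and 290 of all 12846 genes were called. Unadjusted p for the interaction was under 0.05 for 4 repair genes and for 2139 of 12846 genes. Comparisons that use the same libraries are not independent: the WT libraries after 5-FU enter both the genotype comparison after 5-FU and the WT response.

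**Figure D3:**
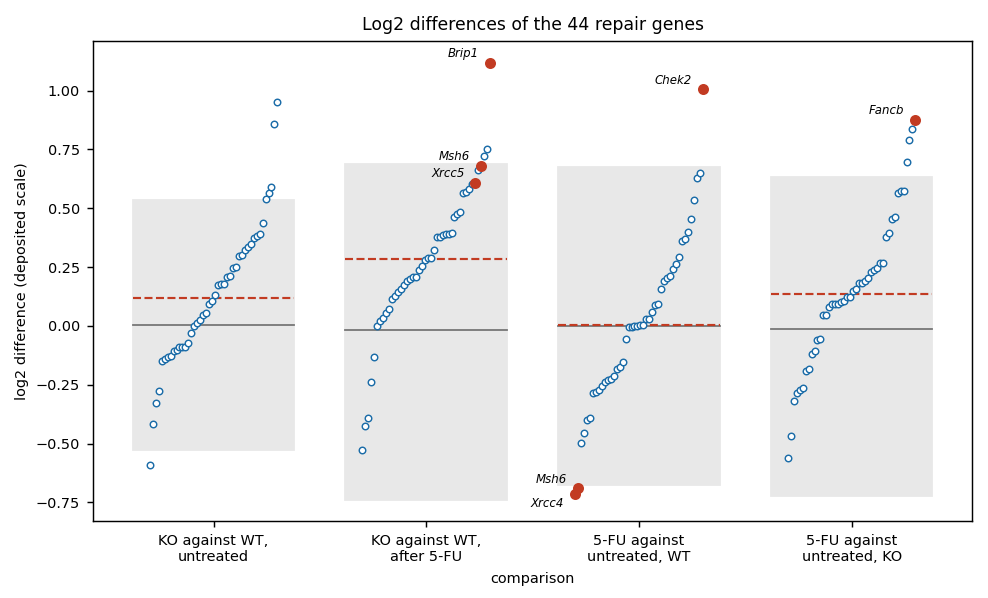
Log2 difference (deposited scale) of each of the 44 repair genes in 4 comparisons, sorted within each; filled red points passed the test and open points did not. Grey boxes span the 5th to 95th percentile of all 12846 genes, grey lines mark the median of all genes and dashed red lines the median of the repair genes, which lies furthest above 0 for KO against WT after 5-FU, at 0.29.

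Among the Fanconi anaemia genes, Brip1 (ENSMUSG00000034329, chr11:86058138-86201193, minus strand) encodes the BRCA1-bound helicase FANCJ. Its normalized count was 307, 272 and 388 in the untreated WT libraries D1, D2 and D3, 764, 118 and 233 in the untreated KO libraries D4, D5 and D6, 319, 75.3, 169 and 142 in the WT libraries A2, A3, A4 and D4 from treated mice, and 595, 869 and 613 in the treated KO libraries A5, A6 and A8. After 5-FU every KO library lay above every WT library. The KO mean was 3.92-fold the WT mean, with a log2 difference of 1.12 (SE 0.29) and a limma adjusted p of 0.0202, or 0.0587 with the alike pair averaged. The deposited scale compresses differences of genes with low counts, so log2 differences are smaller than the ratio of means. Untreated KO libraries spread widely, from 118 in D5 to 764 in D4, and the genotypes overlapped there (log2 difference -0.03, adjusted p = 0.994). The genotype call was lost without WT A3 (adjusted p = 0.0669), without WT D4 (0.0537) and without KO A5 (0.0541), A6 (0.103) or A8 (0.0553). Without WT D4 all libraries of this comparison carry 2016 dates, and the log2 difference was then 1.09.

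Fancb (ENSMUSG00000047757, chrX:164980592-164997272, plus strand), a subunit of the core complex that attaches ubiquitin to FANCD2 and FANCI, read 344, 182 and 343 in the untreated WT libraries D1, D2 and D3, 185, 133 and 132 in the untreated KO libraries D4, D5 and D6, 177, 310.0, 409.9 and 260.4 in the WT libraries A2, A3, A4 and D4 from treated mice, and 539, 449 and 509 in the treated KO libraries A5, A6 and A8. The 3 treated KO libraries were the highest of all 13, and the 3 untreated KO libraries were among the lowest. From untreated to treated KO cells it rose 3.32-fold (log2 difference 0.88, SE 0.22, limma adjusted p = 0.0268, or 0.0382 with the alike pair averaged). In WT cells the log2 difference was -0.00 (adjusted p = 0.995), and the interaction of 0.88 (SE 0.30) did not pass (adjusted p = 0.140). The call was lost without any single KO library (adjusted p 0.0524 to 0.102), by limma-voom (0.0569) and with acquisition year as a term (0.639). In KO cells year and treatment cannot be told apart, since all untreated libraries date from 2015 and all treated ones from 2016.

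Fancm (ENSMUSG00000055884), a translocase that recruits the core complex to stalled forks, read 408, 75.2 and 144 in the untreated WT libraries D1, D2 and D3, 318, 30.3 and 167 in the untreated KO libraries D4, D5 and D6, 251, 364, 252 and 389 in the WT libraries A2, A3, A4 and D4 from treated mice, and 438, 394 and 488 in the treated KO libraries A5, A6 and A8. Untreated libraries spread from 30.3 to 408, and the treated KO libraries lay between 394 and 488, above all treated WT libraries. Its 2.56-fold difference between treated and untreated KO cells did not pass (log2 difference 0.79, adjusted p = 0.140). The other Fanconi genes are given as mean normalized count ± SD in untreated WT, untreated KO, WT after 5-FU and KO after 5-FU, in that order and with n = 3, 3, 4 and 3, as are all genes below. The core complex subunits were Fanca with 72.8 ± 40.4, 181 ± 131, 105 ± 66.5 and 141 ± 46.9, Fancc with 63.8 ± 44.5, 193 ± 86.5, 154 ± 119 and 247 ± 42.0, Fancg with 363 ± 367, 374 ± 382, 423 ± 235 and 229 ± 37.9 and Fancl, its ubiquitin ligase, with 857 ± 537, 1006 ± 236, 524 ± 69.0 and 577 ± 175. Fancc shares 18.6% of its exon bases with other genes, Fancl 13.7%, and Fanca 10.5%. Fancd2, which is ubiquitinated by the complex, averaged 202 ± 209, 353 ± 50.9, 263 ± 145 and 407 ± 156, and its partner Fanci 146 ± 70.8, 264 ± 184, 172 ± 123 and 248 ± 84.5, with 16.0% of its exon bases shared with other genes. None of these 6 passed in any of the 5 comparisons. Fancg ran from 115 to 812 within the untreated KO group. Of all 9 Fanconi genes, 8 had a positive log2 difference between KO and WT after 5-FU, with 1 called and a median of 0.29. Their summed counts were 3184 to 3639 in the 3 KO libraries and 2065 to 2677 in the 4 WT libraries.

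**Figure D4:**
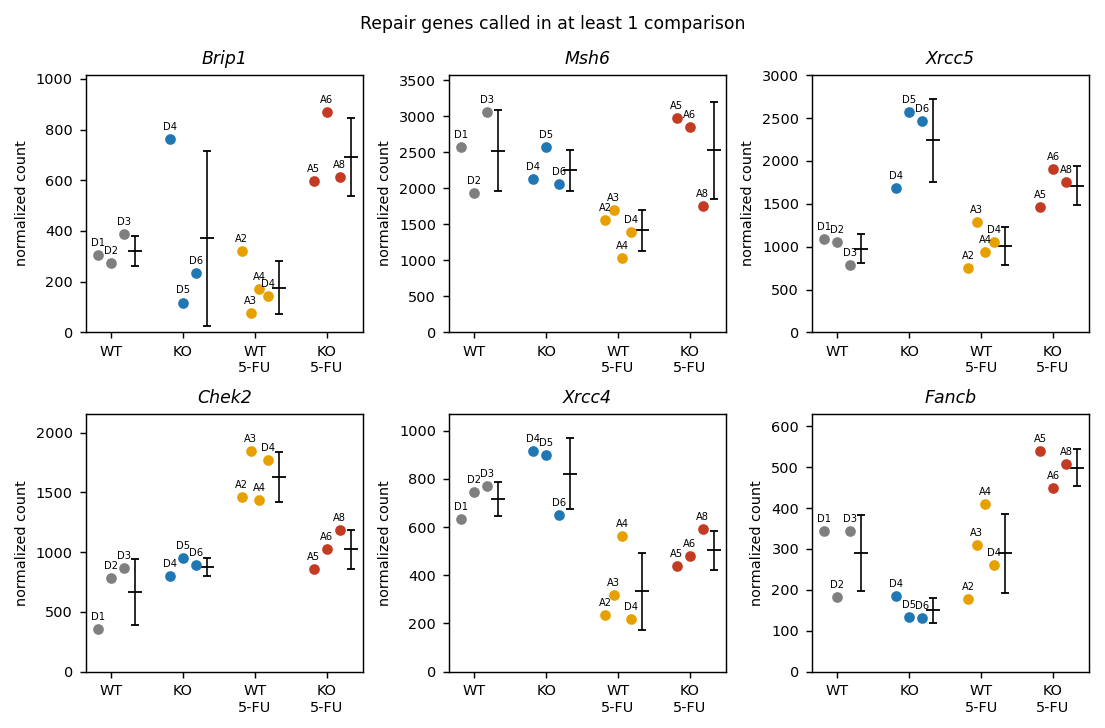
Normalized count of the 6 repair genes that passed the test in at least 1 comparison, with 1 point per library (labelled by library) and the mean ± SD of each group beside its points. Brip1, Msh6 and Xrcc5 are higher in the 3 KO than in the 4 WT libraries after 5-FU, Chek2 is higher in the 4 WT libraries after 5-FU than in all others, and Fancb is highest in the 3 KO libraries after 5-FU.

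Mismatch repair was represented by 3 genes. Msh6 (ENSMUSG00000005370, chr17:87975062-87990892, plus strand), a subunit that recognises base mismatches, had normalized counts of 2566, 1940.0 and 3058 in the untreated WT libraries D1, D2 and D3, 2122, 2568 and 2053 in the untreated KO libraries D4, D5 and D6, 1556, 1698, 1037 and 1389 in the WT libraries A2, A3, A4 and D4 from treated mice, and 2978, 2851 and 1749.6 in the treated KO libraries A5, A6 and A8. The 4 treated WT libraries were the lowest of all 13, and KO A8 was the lowest of the others. Msh6 fell 1.78-fold in WT cells (log2 difference -0.69, SE 0.20, limma adjusted p = 0.0442, or 0.0718 with the pair averaged). After 5-FU the KO mean was 1.78-fold the WT mean (log2 difference 0.68, SE 0.20, adjusted p = 0.0346, or 0.0537). Both differences rest on the same 4 WT libraries. Treated and untreated KO libraries overlapped (log2 difference 0.12, adjusted p = 0.801), and the interaction was 0.81 (SE 0.29, adjusted p = 0.149). The genotype call was lost without WT A4 (adjusted p = 0.0884), WT D4 (0.0759), KO A5 (0.167) or KO A6 (0.154). The WT response was lost without any of 9 libraries, with adjusted p up to 0.163 without WT D3, and with year as a term (0.310). Msh3, which recognises larger loops, averaged 311 ± 126, 282 ± 143, 209 ± 70.0 and 264 ± 154, and Pms2, the nuclease subunit of MutL, 398 ± 140.3, 314 ± 273, 290.2 ± 93.2 and 347 ± 81.5. Neither passed in any comparison.

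End joining was represented by 5 genes. Xrcc5 (ENSMUSG00000026187, chr1:72307421-72394952, plus strand), which encodes Ku80, had normalized counts of 1092, 1056 and 784 in the untreated WT libraries D1, D2 and D3, 1684, 2571 and 2471 in the untreated KO libraries D4, D5 and D6, 756, 1288, 941 and 1051 in the WT libraries A2, A3, A4 and D4 from treated mice, and 1463, 1907 and 1759 in the treated KO libraries A5, A6 and A8. KO libraries lay above WT libraries in both treatments without overlap. After 5-FU the ratio of means was 1.69 (log2 difference 0.61, SE 0.18, limma adjusted p = 0.0445, or 0.0556 with the pair averaged). In untreated cells the ratio was 2.29 (log2 difference 0.95, SE 0.20), the repair gene with the smallest p there, and did not pass (adjusted p = 0.110). The interaction was -0.34 (SE 0.27, adjusted p = 0.572). This call was lost without untreated KO D6 (adjusted p = 0.0520), WT A2 (0.0897), WT A4 (0.0820), WT D4 (0.0833) and each KO library (0.0693 to 0.176).

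Xrcc6, which encodes Ku70, the other subunit, averaged 2764 ± 825, 2943 ± 645, 2258 ± 161 and 2342 ± 463 and did not pass in any comparison (log2 difference 0.09 between untreated KO and WT and 0.03 after 5-FU). Xrcc4 (ENSMUSG00000021615, chr13:89774027-90089608, minus strand), the scaffold of ligase IV, read 635, 747 and 770.0 in the untreated WT libraries D1, D2 and D3, 915, 900.2 and 652 in the untreated KO libraries D4, D5 and D6, 234, 317, 564 and 219 in the WT libraries A2, A3, A4 and D4 from treated mice, and 437, 479.9 and 593 in the treated KO libraries A5, A6 and A8. All 7 treated libraries lay below all 6 untreated ones. The fall in WT cells was 2.15-fold (log2 difference -0.71, SE 0.21, limma adjusted p = 0.0498) and did not pass with the pair averaged (0.124), with year as a term (0.161) or without any library other than WT A4, with adjusted p from 0.0522 without KO D6 to 0.153 without WT D4. In KO cells the log2 difference was -0.47 (adjusted p = 0.254), and the interaction was 0.25 (adjusted p = 0.748). Lig4, the ligase itself, had 20.9 in WT A4 and at most 0.664 in the other WT libraries after 5-FU, and 28.2, 30.7 and 0 in the KO libraries. It reached 79.2 in untreated KO D4 and at most 0.979 in the other untreated libraries, and a fold is not given at these counts. Prkdc, the catalytic subunit of the DNA-dependent protein kinase that Ku recruits, averaged 507 ± 435, 495 ± 513, 666 ± 97.4 and 513 ± 17.3 and passed in no comparison.

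Damage signalling kinases included the repair gene with the smallest p in any comparison. Chek2 (ENSMUSG00000029521, chr5:110839979-110874145, plus strand) encodes CHK2, which ATM activates at double-strand breaks, and read 355, 780.1 and 864 in the untreated WT libraries D1, D2 and D3, 798, 948 and 889 in the untreated KO libraries D4, D5 and D6, 1462, 1844, 1434 and 1769 in the WT libraries A2, A3, A4 and D4 from treated mice, and 857, 1029 and 1184 in the treated KO libraries A5, A6 and A8. The 4 treated WT libraries were the highest of all 13. In WT cells Chek2 rose 2.44-fold (log2 difference 1.01, SE 0.20, limma adjusted p = 0.00542, or 0.0208 with the pair averaged). Without untreated WT D1, its lowest library, the log2 difference was 0.75 (adjusted p = 0.0180). The call was lost with year as a term (log2 difference 1.11, adjusted p = 0.0961) and without both D1 and 1 of the alike pair (0.71, adjusted p = 0.0558). In KO cells the log2 difference was 0.16 (SE 0.21, adjusted p = 0.745). The interaction, -0.85 (SE 0.29), did not pass (adjusted p = 0.135), nor did the lower KO level after 5-FU (-0.53, adjusted p = 0.104). Atm, the kinase upstream of CHK2, averaged 136 ± 109.7, 226 ± 161, 313 ± 113 and 376 ± 106, Atr, its counterpart at stalled forks, 799 ± 613, 509 ± 194, 786 ± 423 and 898 ± 232, and Chek1, the target of ATR, 508 ± 215, 472 ± 357, 387 ± 113 and 660.3 ± 201. None of these 3 passed in any comparison.

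Base excision and single-strand break repair held 7 genes, and 0 passed in any comparison by limma. Xrcc1 (ENSMUSG00000051768), the scaffold of single-strand break repair, read 133, 773 and 189 in the untreated WT libraries D1, D2 and D3, 631, 680.3 and 1113 in the untreated KO libraries D4, D5 and D6, 432, 342, 223 and 375 in the WT libraries A2, A3, A4 and D4 from treated mice, and 658, 595 and 715 in the treated KO libraries A5, A6 and A8. Untreated WT D2 lay far above D1 and D3. The 2.21-fold difference between untreated KO and WT cells did not pass (log2 difference 0.86, SE 0.30, adjusted p = 0.336), but did so without WT D2 (log2 difference 1.28, adjusted p = 0.0492). Lig3, the ligase that XRCC1 binds, averaged 276 ± 95.2, 341 ± 48.8, 200.4 ± 140.5 and 420.5 ± 147, with 25.1% of its exon bases shared with Rffl on the opposite strand. Parp1, the enzyme that marks strand breaks with poly(ADP-ribose), averaged 1990.5 ± 409.9, 2290.1 ± 362, 1767 ± 462 and 2764 ± 385 and narrowly missed after 5-FU (log2 difference 0.57, adjusted p = 0.0555). The glycosylases were Ung, which removes uracil and fluorouracil, with 454 ± 73.7, 588 ± 219, 327 ± 114 and 525 ± 244, Tdg, which removes thymine and fluorouracil opposite guanine, with 1022 ± 393, 1056 ± 493, 931 ± 560.5 and 1515 ± 118, and Ogg1, which removes 8-oxoguanine, with 182 ± 59.0, 179 ± 19.8, 136 ± 69.2 and 219 ± 102. Exon bases shared with other genes were 6.83% for Tdg and 10.6% for Ogg1. Tdg was low in WT A3 and D4 after 5-FU, at 466 and 429, and stood at 1357 and 1472 in A2 and A4. Apex1 averaged 7978 ± 1168, 8566 ± 512, 6591 ± 639 and 7984 ± 1402. All 7 log2 differences between KO and WT after 5-FU were positive, from 0.25 to 0.66 with a median of 0.57. The 7 genes summed to 13067 to 15698 in KO and 8914 to 12669 in WT libraries after 5-FU, while WT untreated libraries held 10326 to 13824.

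Homologous recombination held 12 genes, and 0 passed in any comparison by limma. Xrcc3 (ENSMUSG00000021287), which acts in strand exchange, read 161, 243 and 278 in the untreated WT libraries D1, D2 and D3, 544, 567 and 346 in the untreated KO libraries D4, D5 and D6, 187, 49.3, 207 and 59.8 in the WT libraries A2, A3, A4 and D4 from treated mice, and 321, 387 and 338 in the treated KO libraries A5, A6 and A8. KO libraries lay above WT libraries in both treatments. The differences did not pass in untreated cells (2.14-fold, log2 difference 0.59, adjusted p = 0.430) or after 5-FU (2.77-fold, log2 difference 0.72, adjusted p = 0.0516). Bard1 (ENSMUSG00000026196), which forms a ubiquitin ligase with BRCA1, read 31.3, 125 and 34.9 in the untreated WT libraries D1, D2 and D3, 94.0, 13.9 and 37.0 in the untreated KO libraries D4, D5 and D6, 94.9, 225, 162 and 232 in the WT libraries A2, A3, A4 and D4 from treated mice, and 392, 222 and 133 in the treated KO libraries A5, A6 and A8. Its treated KO libraries lay above the untreated ones, 5.15-fold on the means, without passing (log2 difference 0.83, SE 0.25, adjusted p = 0.0609). Brca1, which licenses end resection, averaged 202 ± 147, 343 ± 105, 433 ± 124 and 688 ± 321. Brca2, a tumour suppressor that mediates strand exchange, averaged 862 ± 360.3, 981 ± 162, 857 ± 311 and 1629.5 ± 243 and missed the threshold after 5-FU (log2 difference 0.75, adjusted p = 0.0551). Palb2, which links BRCA1 to BRCA2, averaged 99.5 ± 81.1, 135 ± 95.2, 84.8 ± 42.3 and 182 ± 105. Related to Xrcc3 in sequence were Rad51c with 13.0 ± 22.4, 46.6 ± 48.8, 14.4 ± 27.2 and 75.9 ± 44.6 and Xrcc2 with 243 ± 106, 367 ± 27.6, 323 ± 145 and 414 ± 62.1.

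The break-sensing complex that starts resection consists of Mre11a, Rad50 and Nbn. Mre11a, its nuclease, averaged 425 ± 83.7, 476 ± 244, 398 ± 62.9 and 495 ± 70.3, Rad50, its tether, 1085 ± 393, 1114 ± 279, 1290.5 ± 371 and 1399.6 ± 190.4, and Nbn, its link to ATM, 583 ± 222, 829 ± 93.5, 762 ± 241 and 1181 ± 193. Rad54l, a motor that helps strand invasion, averaged 427 ± 137, 348 ± 19.9, 423 ± 92.7 and 451 ± 112, with 15.4% of its exon bases shared with other genes. Blm, a helicase that dissolves recombination intermediates, averaged 355 ± 293, 472 ± 110.2, 437 ± 169 and 618 ± 220.4. All 12 log2 differences between KO and WT after 5-FU were positive, from 0.05 to 0.75 with a median of 0.35 against -0.02 over all genes, and unadjusted p was under 0.05 for 4. The 12 genes summed to 7222 to 8032 in KO and 4857 to 6104 in WT libraries after 5-FU, which did not overlap. Gene by gene, 2 of the 12 (16.7%) did not overlap, Brca2 and Xrcc3, against 27.0% of all genes.

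Nucleotide excision repair held 4 genes, and 0 passed in any comparison by limma. Xpc, which recognises distortions of the helix, averaged 603 ± 360.1, 332 ± 334, 312 ± 95.9 and 307 ± 53.9, and Xpa, which verifies the lesion, 767 ± 319.5, 680.5 ± 139, 616 ± 311 and 502 ± 28.4. Ercc1, a subunit of the nuclease that cuts 5′ of the lesion, averaged 652 ± 209, 598 ± 163, 996 ± 92.5 and 656 ± 86.2 and was lower in all KO than in all WT libraries after 5-FU (log2 difference -0.43, adjusted p = 0.176). Ercc2, a helicase of the transcription factor TFIIH, averaged 14.3 ± 16.6, 5.99 ± 6.15, 14.2 ± 17.9 and 23.6 ± 39.8, with 42.7% of its exon bases shared with other genes. Unlike the recombination and base excision genes, 1 of the 4 had a positive log2 difference between KO and WT after 5-FU, and the median was -0.07.

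**Figure D5:**
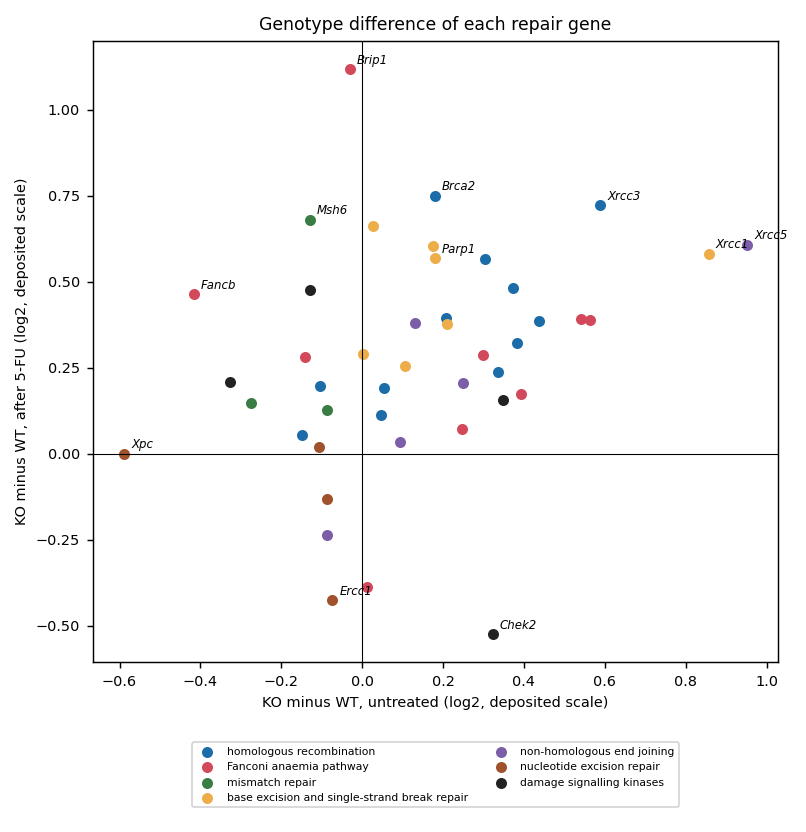
Log2 difference between KO and WT cells for each repair gene, untreated on the horizontal axis and after 5-FU on the vertical axis, coloured by repair role. The 2 axes share no library; most points lie above the horizontal line, Xrcc5, Xrcc1 and Xrcc3 lie to the right and above, and Chek2 is the lowest point, at -0.53 after 5-FU.

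Of 119 other repair genes tested, drawn up as a list of the same pathways, 10 (8.40%) differed between KO and WT cells after 5-FU, against 10.9% of all genes. Of these, 8 were higher in KO. The second of each pair of adjusted p-values below is with the alike pair averaged. Exo1, the exonuclease of end resection and mismatch repair, had 1875 ± 301 against 496 ± 256 (3.78-fold, adjusted p = 0.000816, or 0.00350). Fen1, the flap endonuclease, had 1190.5 ± 251 against 528 ± 75.9 (adjusted p = 0.00670, or 0.0200), but 84.2% of its exon bases overlap other genes. Topbp1, an activator of ATR, had 1593 ± 343 against 756 ± 270.1 (adjusted p = 0.0158, or 0.0488). Gen1, which cuts Holliday junctions, had 320.2 ± 76.9 against 107 ± 20.4 (adjusted p = 0.0389, or 0.0750). The 2 that were lower in KO were Uvssa, of transcription-coupled repair, with 91.2 ± 14.4 against 404 ± 144 (adjusted p = 0.0111, or 0.0224), and Faap20, of the Fanconi core complex, with 979.5 ± 312 against 1708 ± 233 (adjusted p = 0.0395, or 0.0955). Leaving out 1 library ended the calls of Fen1 (without KO A5, adjusted p = 0.0557), Uvssa (without KO A6, 0.0557), Topbp1 (without WT D4, KO A5 or KO A6, up to 0.0855), Faap20 (without WT A2, A3 or D4, or KO A5 or A6, up to 0.179) and Gen1 (without any of the 7 libraries compared, up to 0.151). The calls of Gen1 and Faap20 were also lost by limma-voom, and those of Gen1, Faap20 and Topbp1 with acquisition year as a term. In untreated cells 0 of the 119 passed, with 14 at an unadjusted limma p under 0.05, against 4 and 1291 of all 12846 genes. The WT response called 2.52% of the 119 against 6.68% of all genes, and the KO response 0.840% against 5.92%. Both shares lie below those over all genes. In WT cells 5-FU raised 3, namely H2afx, the histone phosphorylated at breaks (5592 ± 1143 against 2278 ± 480.4, adjusted p = 0.000851, or 0.00350), the glycosylase Neil3 (1969.6 ± 803 against 512 ± 475, adjusted p = 0.0141, or 0.0479) and Wdr48, a cofactor of the deubiquitinase USP1 (985 ± 352 against 325 ± 245, adjusted p = 0.0350, or 0.104). Between untreated and treated KO cells, where year and treatment cannot be told apart, 1 was called. It was Slx1b, a nuclease subunit (41936 ± 2637 treated against 24409.9 ± 4809 untreated, adjusted p = 0.0304, or 0.0167). Slx1b shares 16.4% of its exon bases with other genes, Bola2 on the opposite and Gm6939 on the same strand. Its counts lay far above those of Apex1, which reached at most 9599. How many of the reads belong to Slx1b was not tested. Without untreated WT D3 the call of Neil3 was lost (0.0755). The libraries of Wdr48 overlapped, and its call was lost without untreated WT D1 or D3, WT A3, A4 or D4 after 5-FU, or KO A6 (up to 0.134). That of Slx1b was lost without untreated KO D4 or D6 or any treated KO library (up to 0.145) and by limma-voom. With acquisition year as a term the calls of Neil3, Wdr48 and Slx1b were lost. The interaction called 0, with 16 at an unadjusted limma p under 0.05, against 365 and 2139 of all 12846 genes.

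Other gene groups are set beside the repair genes here, and not all of them went the same way. Of all 12846 genes, 10.9% were called between KO and WT cells after 5-FU and 0.0311% in untreated cells. In the WT response 6.68% were called and in the KO response 5.92%. For the KO response year and treatment cannot be told apart. Of 48 DNA replication and G1/S genes, 24 were higher and 0 lower in KO cells after 5-FU, with a median log2 difference of 0.70 against 0.29 over the repair genes. Their summed counts were 146335 to 167151 in KO and 85499 to 112525 in WT libraries after 5-FU. In the WT response 0 of these genes rose and 2 fell, in the KO response 6 rose, and 0 of 48 differed between untreated KO and WT cells. Of 42 mitosis and G2/M genes, 24 rose with 5-FU in WT cells and 11 in KO cells, and 5 were higher in KO than in WT cells after 5-FU. In untreated cells 2 of the 42, Cdc20 and Bub1, were already higher in KO than in WT. There 41 log2 differences were positive, with a median of 0.64. The summed counts of these genes were 22112 to 46996 in untreated WT and 55853 to 66350 in untreated KO libraries. Of 22 targets of p53, including Xpc, 2 were higher and 1 lower in KO cells after 5-FU, and 0 passed in the response of WT or KO cells. These 3 are 13.6% of the 22, near the 10.9% of all genes. The median log2 difference of the p53 targets between KO and WT cells after 5-FU was 0.01. Of 9 megakaryocyte genes tested, 8 rose with 5-FU in WT cells and were lower in KO than in WT cells after 5-FU. Their summed counts were 32447 to 54836 in WT and 5236 to 8062 in KO cells after 5-FU, and 4220.3 to 6185 and 4592 to 8157 in untreated WT and KO cells. Erythroid genes, of which 4 of 9 tested were lower in KO cells after 5-FU, summed to 5807 to 8533 in WT and 4044 to 4946 in KO cells. Car1 was at 0 in all KO libraries, untreated ones included. Its normalized count was 84.5 to 135 in WT cells after 5-FU. In untreated WT libraries it ran from 0 to 155, with a mean of 51.7, so 0 was not particular to KO there. Hbb-bt, a beta globin gene with a near-identical copy whose reads may be split, had a normalized count of 2215 to 3128 in KO and 1347 to 1910.5 in WT cells after 5-FU, a difference in the other direction that did not pass (log2 0.67). Neutrophil genes, of which 4 of 8 were lower, summed to 4101 to 5887 and 2249.8 to 2404. Most of that sum was Prtn3, with a mean of 4033 in WT and 2271 in KO cells after 5-FU. Mpo and Lcn2 were at 0 in KO cells after 5-FU. Lcn2 was also at 0 in untreated WT cells and averaged 0.545 ± 0.944 in untreated KO cells, against 57.5 ± 24.8 in WT cells after 5-FU. Mpo was also low in WT cells after 5-FU (7.66 ± 13.5) and averaged 33.5 ± 58.0 in untreated KO cells. Monocyte genes, of which 1 was lower and 1 higher of 4 tested, summed to 14694 to 17769 in WT and 8137 to 9003 in KO cells after 5-FU. Most of that sum was Lyz2, with a mean of 15981 in WT and 8447 in KO cells after 5-FU. Among the 9 HSC markers, Kit and Slamf1 were lower and Procr higher in KO cells after 5-FU. The part of these groups in the differences of Brip1, Msh6 and Xrcc5, or in the WT response of Chek2, Msh6 and Xrcc4, was not tested.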

How the data were processed

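Polyadenylated RNA of 100 sorted HSCs per library was sequenced by Smart-seq2, per the labels' protocols. The authors deposited 1 table of log2-scale variance-stabilized values made with DESeq2, after trimming with Trimmomatic and alignment with Bowtie 1.1.1 to mm10, per the submitters' processing notes. For the counting, the tool, annotation and strand setting were not given in the sources used here. Every column was matched to 1 library by name.

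The values were turned back into reads. The value that the transformation gives at 0 was solved as 7.6484, and the lowest steps gave each library's size factor. Reads came out whole within 0.1 for 100.0% of genes in all 13 libraries. Read totals ran from 11416753 to 45384866. A normalized count is reads divided by the size factor, and 3 reads correspond to a normalized count of 0.979 to 4.35. The filter on low values uses these recovered counts: at least 10 in at least 3 libraries.

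Differences of the deposited log2 values were tested in limma 3.58.1 (R 4.3.3; lmFit, contrasts.fit, eBayes with a trend) with 1 mean per group over all 13 libraries (9 residual degrees of freedom, prior df 7.67). Benjamini-Hochberg adjustment ran over 12846 genes within each of 5 comparisons, with calls at 0.05. Map2k1 was also tested by an exact permutation test. A fold is the ratio of group mean normalized counts. The procedure was tested on simulated data. Other steps used pandas 2.3.3, numpy 2.4.6 and scipy 1.17.1 under Python 3.11.15, with figures from matplotlib 3.10.9.

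The repair genes and all lists were chosen with earlier results of these data known. All repair genes are named. Those that pass, and the 3 with the smallest p in comparisons where fewer than 3 pass, are given in every library. Of the other repair genes, those that pass are named, at most 5 per direction, and some genes of the lists are not reported here by name. Alternatives were the alike pair averaged, only the groups compared, other filters, pseudocounts and scalings, limma-voom, library weights, acquisition year as a term, each library left out, and a combination added after the data were seen that drops untreated WT D1 and 1 of the alike pair. Exon lengths, overlaps and coordinates are from GENCODE M21 (GRCm38, the assembly of mm10), and promoters are from RefSeq.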

Additional observations from a re-analysis of the deposited data

Results flagged for a closer look

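Of 44 repair genes examined in the group of 4 WT libraries after 5-FU, 5 had 1 library far from the other 3 by Dixon's test, and in all 5 it was A4. Chance alone flags about 1 in 20 groups, and A3 and D4 are nearly alike. Palb2 stood at a normalized count of 21.9 in A4 and between 98.3 and 112 in the others. Rad51c stood at 55.2 in A4 and at most 2.31 in the others, Lig4 at 20.9 and at most 0.664, and Ercc2 at 40.9 and at most 7.31, all 3 at low counts. Ercc1 stood at 858 in A4 and between 1030.0 and 1055 in the others.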

How the results depend on the processing

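Over 15 log2 differences of named repair genes and 372 alternative values, 0 changed sign, 294 stayed on the same side of the threshold, 72 no longer passed and 6 newly passed. All 72 losses fell on differences that had passed. Of 25 alternatives each, the genotype call after 5-FU was lost in 8 for Brip1, 9 for Msh6 and 11 for Xrcc5. The WT response was lost in 15 for Msh6, 19 for Xrcc4 and 2 for Chek2, and the KO response in 8 for Fancb. Repair genes called in KO against WT after 5-FU numbered 3, and 0 with the pair averaged, with year as a term, or without D1 and 1 of the pair, 5 with only the groups compared or a minimum of 50, 6 when recentred, 1 with limma-voom and 19 with library weights (5611 of all genes). In this comparison the year term amounts to leaving out WT D4, with a median log2 difference of 0.272 and 0 calls both ways, and is no separate check. In the WT response repair genes called numbered 3, and 1 with the pair averaged or only the groups compared, and 0 with the year term or without D1 and 1 of the pair. In the KO response they numbered 1, and 2 with quantile scaling, recentring or weights, and 0 with limma-voom or the year term; in the interaction 0, and 2 with weights. Leaving out 1 library gave 0 to 6, 1 to 2, 0 to 2 and 0 to 1 in these comparisons, and 0 to 1 in untreated cells. All genes called numbered 1395 in KO against WT after 5-FU (913 pair averaged, 869 limma-voom, 881 year; 694 to 1606 without 1 library), 858 in the WT response (510 pair averaged, 415 groups compared, 1732 weights, 219 year, 534 without D1 and 1 of the pair; 464 to 990), 761 in the KO response (408 limma-voom, 1466 weights, 7 year; 356 to 979), 365 in the interaction (237 pair averaged, 864 weights, 199 year, 149 without D1 and 1 of the pair; 140 to 476) and 4 in untreated cells (2 pair averaged, with a minimum of 50 or with year, 0 groups compared or limma-voom, 9 pseudocount 1; 1 to 25). Recentring moved higher against lower calls from 689 and 706 to 920 and 510 in KO against WT after 5-FU, from 357 and 404 to 555 and 313 in the KO response, and from 134 and 231 to 187 and 178 in the interaction. Map2k1 after 5-FU was -0.96, and -0.79 without passing when the pair was averaged. With promoter windows of 100 bases, E2F forms occurred in 5.26% of the repair genes' promoters and 1.70% of those of tested genes, CHR in 0% and 4.65%, CCAAT in 36.8% and 26.6% and ETS cores in 0% and 5.26%. The causes were not tested. No paired analysis was possible because the groups compared share fewer than 2 replicate labels. Libraries of 100 cells limit Lig4, Rad51c and Ercc2, which had 0 reads in several or 1 of them.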
